A study of Mus musculus with 8 samples.

Results

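Cells under stress halt their division or their growth through a small set of genes that p53 and related stress pathways control, and 10 of these stress arrest genes were followed here in mouse muscle. They are the growth arrest and DNA damage genes Gadd45a, Gadd45b and Gadd45g, the cell cycle inhibitor gene Cdkn1a, and Ccng1, Mdm2, Trp53inp1, Sesn1, Sesn2 and Bbc3. They were chosen as a list by name, and each was found in the count tables by the Ensembl identifier that carries its symbol. All 10 were among the 22880 genes counted, and all 10 were among the 14001 genes that passed the filter on low counts and were tested.

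The data are RNA sequencing counts of the soleus, a calf muscle rich in slow fibres, from 4 control mice (Dnm2 +/+) and 4 Dnm2 +/K562E mice. All 8 were independent male mice on a C57BL/6 background (C57bl/6 J in the methods), 2 months of age, and each gave 1 library. Dnm2 encodes dynamin 2, a GTPase that pinches vesicles off membranes, and K562E is a point mutation linked to a dominant form of Charcot-Marie-Tooth neuropathy. The mutant allele was knocked into the endogenous Dnm2 locus, is present in all cells of the mouse and leaves 1 wild-type allele, and the methods describe a LoxP site that remains in an intron beside it. The whole muscle was ground, so the counts sum over fibres and every other cell of the tissue, and fewer cells of a type cannot be told apart from less RNA per cell.

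The tumour suppressor p53 is a transcription factor that is kept low by MDM2 and accumulates after DNA damage and other stresses. Its targets stop the cell cycle (Cdkn1a), restrain growth signalling through mTORC1 (the sestrins), return the cell to rest by degrading p53 itself (Mdm2) or start apoptosis (Bbc3). In skeletal muscle, whose fibres no longer divide, several of the same genes also respond to lost nerve input, unloading and fasting, and Gadd45a is known there as a gene induced by denervation through ATF4.

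The promoters of the 4 genes on which the results turn most are shown to let their p53 sites be compared. Each is the 300-base RefSeq window of GRCm38.p6 that runs from 250 bases before to 50 bases after an annotated transcription start, on the strand of the gene, and capitals mark matches to the p53 half-site, whose pattern reads the same on both strands.
Gadd45a chr6:67037358-67037657 (-): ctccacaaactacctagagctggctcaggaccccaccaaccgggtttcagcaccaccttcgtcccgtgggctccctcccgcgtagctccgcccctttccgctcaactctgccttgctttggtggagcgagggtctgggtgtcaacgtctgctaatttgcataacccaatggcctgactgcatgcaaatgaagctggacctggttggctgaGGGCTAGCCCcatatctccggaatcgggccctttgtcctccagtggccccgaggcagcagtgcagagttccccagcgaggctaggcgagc
Gadd45g chr13:51846425-51846724 (+): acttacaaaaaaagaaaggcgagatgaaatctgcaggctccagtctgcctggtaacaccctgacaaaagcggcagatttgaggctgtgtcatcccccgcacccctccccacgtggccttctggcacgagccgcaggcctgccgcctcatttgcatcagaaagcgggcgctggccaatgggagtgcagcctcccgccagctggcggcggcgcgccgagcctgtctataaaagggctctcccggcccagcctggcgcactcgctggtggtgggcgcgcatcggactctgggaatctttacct
Cdkn1a chr17:29090729-29091028 (+): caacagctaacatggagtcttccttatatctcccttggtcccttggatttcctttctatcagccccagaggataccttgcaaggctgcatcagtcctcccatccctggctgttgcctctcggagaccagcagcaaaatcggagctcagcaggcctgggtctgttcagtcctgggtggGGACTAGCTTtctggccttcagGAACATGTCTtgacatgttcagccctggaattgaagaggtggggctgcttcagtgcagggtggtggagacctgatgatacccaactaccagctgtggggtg
Ccng1 chr11:40755237-40755536 (-): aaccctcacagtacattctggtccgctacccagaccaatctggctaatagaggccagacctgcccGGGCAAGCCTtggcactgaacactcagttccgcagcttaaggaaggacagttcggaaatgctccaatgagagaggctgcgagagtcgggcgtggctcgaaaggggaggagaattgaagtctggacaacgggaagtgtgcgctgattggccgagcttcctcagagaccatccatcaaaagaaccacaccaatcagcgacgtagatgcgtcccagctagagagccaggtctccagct

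Of the members, 9 had such a window and together they had 13, since a gene with several starts has several windows. Trp53inp1 had none. A p53 half-site was matched in 5 of the 13 windows, those of Gadd45a, Ccng1 and Mdm2 and 1 window each of Cdkn1a and Sesn1, while 8.36% of the 32851 windows of all genes held one. The window of Cdkn1a printed above was the only one of the 13 with 2 half-sites close enough to make a full site, which 0.0731% of all windows held. The other window of Cdkn1a, at another annotated start (chr17:29093519-29093818), had no half-site. The half-site of Gadd45a began at position -40 and that of Ccng1 at position -185 from the start. Gadd45b, Gadd45g, Sesn2 and Bbc3 had no half-site in these windows. The E-box CANNTG, the short element that muscle regulatory factors such as myogenin read (searched on both strands), was matched in 9 of the 13 windows and in 72.3% of all windows. These matches are letters in a window and not measured binding, and among the members with a half-site one was higher in the mutant mice (Gadd45a), one was lower (Ccng1) and the others were not called.

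Total counts ran from 33407430 to 48832814 per mouse. Levels below are in normalized CPM, that is, counts relative to library size after TMM scaling in edgeR, and a gene was called when the adjusted p of edgeR's quasi-likelihood test was under 0.05 and the log2 fold change was at least 0.58 in either direction. With these thresholds 1806 of the 14001 tested genes (12.9%) were higher and 1099 (7.85%) were lower in Dnm2 +/K562E soleus, and library size alone, without TMM, gave 2865 higher and 564 lower. The groups did not overlap in 41.2% of the tested genes. The median log2 fold change of all tested genes was 0.01 with TMM and 0.22 with library size alone, so fold changes depend on the scaling by about that difference. Dnm2 itself stood at 66.3 ± 4.74 normalized CPM in controls and 73.4 ± 2.43 in Dnm2 +/K562E mice (SD, n = 4 each; log2 fold change 0.15, adjusted p = 0.0910), which does not check the labels, because the counts add the reads of both alleles, and some of its exon sequence overlaps Tmed1, a gene of the opposite strand. The name of Dnm2 +/K562E mouse 1 spells the mutation differently in 1 of its labels (K452E), and its genotype was taken from the title. Control 1 stood apart from the other controls in several of the genes below, and values without it are given where a call or a value turned on it.

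Of the 10 genes, 2 were called higher in Dnm2 +/K562E soleus (Gadd45a and Bbc3) against a background of 12.9%, and 2 were called lower (Gadd45g and Ccng1) against 7.85%. The other 6 did not pass the test. The median log2 fold change of the 10 was -0.05, beside 0.01 for all tested genes (0.17 and 0.22 with library size alone), and 3 of the 10 had no overlap between the groups (Gadd45a, Gadd45g and Ccng1) beside 41.2% of all genes. Counts this small are not read as a result about the list, and what follows, with the plot of the 10 genes by mouse, concerns single members.

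**Figure D1:**
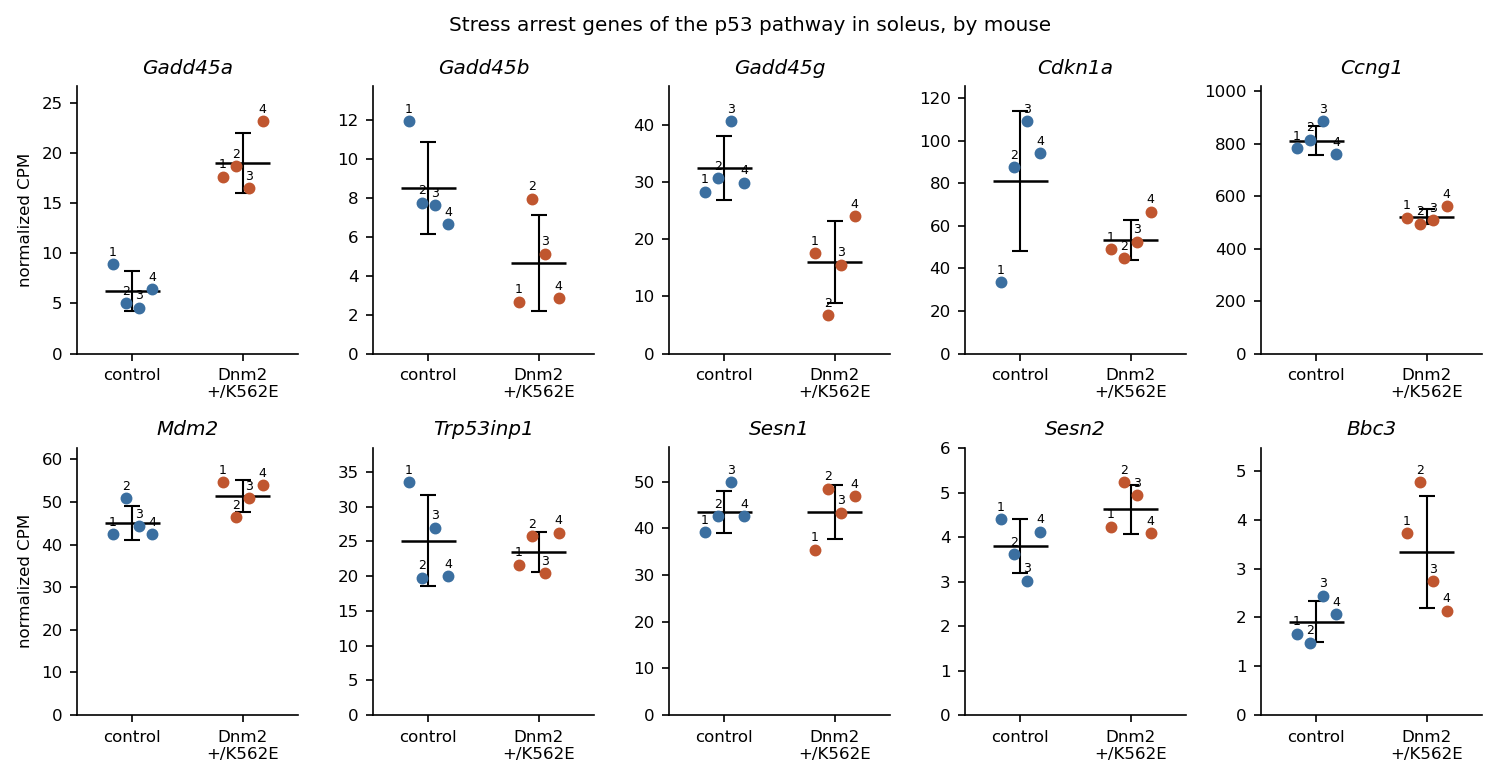
Normalized CPM of the 10 genes in each of the 4 control (blue) and 4 Dnm2 +/K562E (orange) soleus samples, with numbers naming the mouse, black bars the mean and whiskers the SD, each panel starting at 0. All 4 Dnm2 +/K562E mice lie above the controls for Gadd45a and below them for Gadd45g and Ccng1, while the groups overlap in the other 7 panels.

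The Gadd45 genes encode small acidic proteins that bind the kinase MEKK4, PCNA and the cyclin B1 and CDK1 complex. Of the 3 family members, Gadd45a rose and Gadd45g fell, while Gadd45b had a negative fold change that was not called. Gadd45a (chr6:67035096-67037457, minus strand), induced by p53 after DNA damage and by ATF4 in denervated muscle, stood at 8.94, 4.99, 4.57 and 6.39 normalized CPM in controls 1 to 4 and at 17.6, 18.7, 16.5 and 23.2 in Dnm2 +/K562E mice 1 to 4. Every mutant mouse lay above every control, and control 1 was the highest of the controls. The mean rose from 6.22 ± 1.97 to 19.0 ± 2.94 (SD, n = 4 each), with a log2 fold change of 1.61 and a standard error (SE) of 0.20 (adjusted p = 8.5e-05). It was called without each of the mice in turn, at 1.49 to 1.83, and under each of 9 other processing choices. Of the 31-base stretches in its transcripts, 17% also occur in E230016M11Rik, a noncoding gene on the other strand that was not among the counted genes. Since the use of strand in the counting is not stated, reads of that transcript could not be told apart from those of Gadd45a there.

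Gadd45g (chr13:51846678-51848468, plus strand), induced by cytokines and differentiation signals, was the family member with the highest level in control soleus. It stood at 28.3, 30.7, 40.7 and 29.9 normalized CPM in controls 1 to 4 and at 17.5, 6.69, 15.5 and 24.1 in Dnm2 +/K562E mice 1 to 4. All mutant mice lay below all controls, with mouse 2 by far the lowest and mouse 4 nearest to the controls. The mean fell from 32.4 ± 5.61 to 16.0 ± 7.17 (SD, n = 4 each), a log2 fold change of -1.03 (SE 0.29, adjusted p = 0.0148). The call held without each mouse in turn, with log2 fold changes from -1.29 to -0.77.

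Gadd45b (chr10:80930073-80932204, plus strand), an early response gene of NF-kB, TGF-beta and neuronal activity, stood at 11.9, 7.75, 7.61 and 6.65 normalized CPM in controls 1 to 4. It stood at 2.66, 7.95, 5.13 and 2.84 in Dnm2 +/K562E mice 1 to 4, so 3 mutant mice lay below the controls and mouse 2 lay among them. The log2 fold change was -0.86 (SE 0.33, adjusted p = 0.0518), just outside the threshold. The call turned with small changes of processing. It was made with the exact test of edgeR, which the study's methods name (adjusted p = 0.0241), and with DESeq2 (adjusted p = 0.0147), and also without control 4 (0.0450) or without Dnm2 +/K562E mouse 2 (-1.25, adjusted p = 0.00536). With each mouse left out, the call was made in 2 of 8 cases, and not without control 1, where the log2 fold change was -0.66. Of 9 other processing choices, 6 made it, and library size alone did not (edgeR adjusted p = 0.131).

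The ratios between these genes within a mouse do not depend on the scaling of the libraries. The log2 ratio of Gadd45a to Gadd45b was -0.46 ± 0.30 in controls and 2.17 ± 0.85 in Dnm2 +/K562E mice (SD, n = 4 each), a difference of 2.63 (SE 0.45). That of Gadd45a to Gadd45g was -2.42 ± 0.63 in controls and 0.38 ± 0.74 in mutant mice, a difference of 2.80 (SE 0.48). For both ratios the groups did not overlap, and the exact two-sided permutation p was 0.0286, the smallest that 4 against 4 mice can give, or 0.0571 after Benjamini-Hochberg adjustment over the 4 ratios tested. The ratio of Gadd45b to Gadd45g was spread widely among the mutant mice, from -3.09 in mouse 4 to 0.25 in mouse 2, and its difference between genotypes was 0.16 (SE 0.79, exact permutation p = 0.886).

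**Figure D2:**
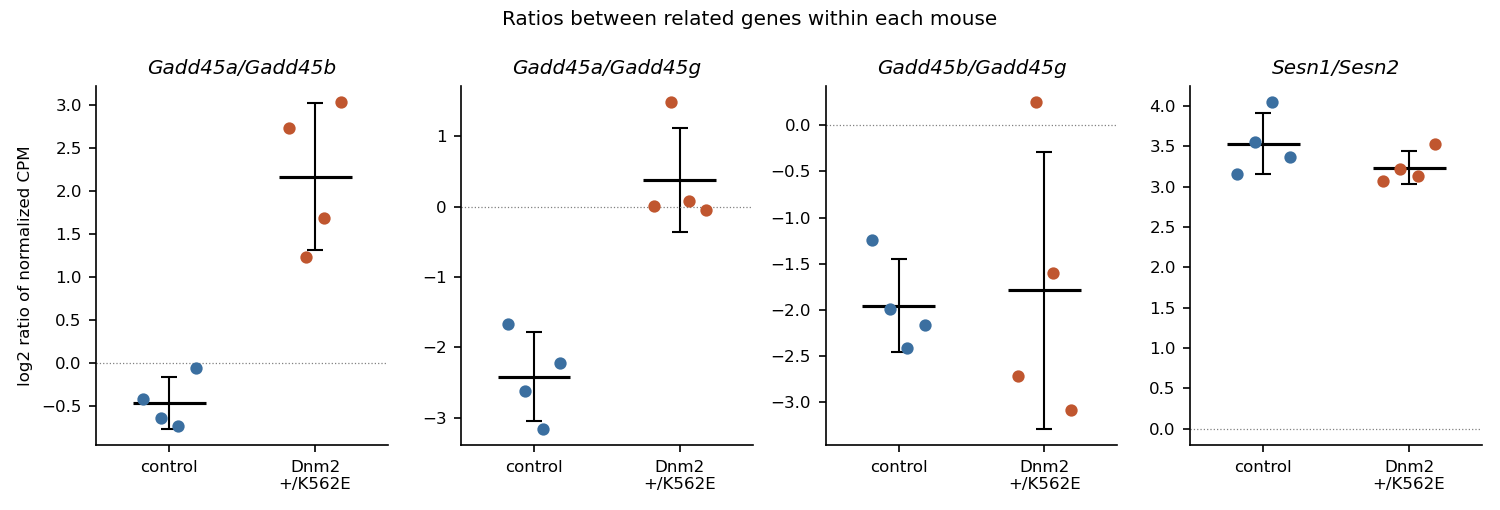
Log2 ratio of normalized CPM between related genes within each control (blue) and Dnm2 +/K562E (orange) mouse, with black bars for the mean and whiskers for the SD (n = 4 each) and a dotted line at equal counts. Both ratios with Gadd45a as numerator separate the genotypes, by 2.63 and 2.80 on the log2 scale, whereas those of Gadd45b to Gadd45g and of Sesn1 to Sesn2 overlap.

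Per kilobase of exon, which allows levels to be compared between genes, Gadd45a made up 9.79% ± 3.29 of the summed family level in controls and 40.1% ± 6.43 in Dnm2 +/K562E mice (SD, n = 4 each). Its lowest and highest shares were 6.16% and 13.8% among controls and 36.1% and 49.7% among mutant mice. The share of Gadd45g was 75.5% ± 7.02 in controls and 48.1% ± 14.4 in mutant mice, and that of Gadd45b was 14.7% ± 4.03 and 11.8% ± 8.43. The summed level of the family was 36.5 ± 4.01 CPM per kilobase in controls and 27.3 ± 5.92 in mutant mice, and these sums overlapped. In 1 mutant mouse, number 2, Gadd45a was the leading family member, since its Gadd45g share was 26.8%. In the other 3 mutant mice Gadd45g still had the largest share.

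Cdkn1a encodes p21, which binds and inhibits cyclin-dependent kinases and is the classical arrest target of p53. Its gene (chr17:29090976-29100727, plus strand) stood at 33.6, 87.5, 109.3 and 94.2 normalized CPM in controls 1 to 4 and at 49.2, 44.8, 52.6 and 66.6 in Dnm2 +/K562E mice 1 to 4. Control 1 was below all mutant mice and the other 3 controls were above them. The log2 fold change over all 8 mice was -0.61 (SE 0.28, adjusted p = 0.105), which did not pass the test. Without control 1 it was -0.87 with an adjusted p of 2.1e-04, so that this mouse alone decided the call. Without any other mouse it ran from -0.73 to -0.43 and was not called. Cdkn1a was not higher in the mutant mice in any of the 8 comparisons without 1 mouse or under the 9 other processing choices, which gave -0.62 to -0.40. Control 1 was also the lowest control for Atf3 (6.91, against 29.0 to 43.8 normalized CPM) and the highest for Egr1 (78.5, against 11.2 to 20.5) and Junb (24.8, against 7.07 to 10.2), genes that respond to stimuli within minutes to hours. Their part in the Cdkn1a values was not tested. Of the 31-base stretches in its transcripts, 9.78% occur in other genes.

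Ccng1 encodes cyclin G1, a p53 target that recruits a phosphatase to MDM2 and so takes part in the feedback on p53. It was by far the most abundant of the 10 genes, and its level (chr11:40748552-40755311, minus strand) was 782.7, 815.8, 887.4 and 760.9 normalized CPM in controls 1 to 4. In Dnm2 +/K562E mice 1 to 4 it was 518.8, 495.0, 509.7 and 563.1. The groups were narrow and far apart, and the mean fell from 811.7 ± 55.3 to 521.6 ± 29.3 (SD, n = 4 each). The log2 fold change was -0.64 (SE 0.07, adjusted p = 3.6e-05), near the fold threshold. Scaled by library size alone it was -0.43 with an adjusted p of 1.6e-04, which passed the p threshold and not the fold threshold. It was called without each mouse in turn, from -0.68 to -0.59.

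Mdm2 encodes the ubiquitin ligase that marks p53 for degradation and is itself switched on by p53. It (chr10:117688875-117710758, minus strand) stood at 42.4, 50.9, 44.3 and 42.5 normalized CPM in controls 1 to 4 and at 54.6, 46.4, 50.9 and 53.9 in Dnm2 +/K562E mice 1 to 4. The groups overlapped through control 2, and the log2 fold change was 0.19 (SE 0.08, adjusted p = 0.0726). The adjusted p was 0.0263 without control 2 and 0.0410 without mutant mouse 2, with log2 fold changes of 0.25 and 0.24, both below the fold threshold. Library size alone gave 0.40 with an adjusted p of 0.0015.

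Trp53inp1, a stress protein that promotes p53 activity and autophagy (chr4:11156431-11174379, plus strand), had 33.5, 19.8, 27.0 and 20.0 normalized CPM in controls 1 to 4 and 21.6, 25.7, 20.4 and 26.2 in Dnm2 +/K562E mice 1 to 4. The mutant values lay inside the range of the controls, and the log2 fold change was -0.09 (SE 0.16, adjusted p = 0.672). Its sign turned with library size alone (0.12) and without control 1 (0.07), so no direction can be given.

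The sestrins Sesn1 and Sesn2 bind GATOR2 and hold back mTORC1 when leucine is low, and they also favour AMPK activity. Sesn1, the form most tied to p53 (chr10:41809935-41908424, plus strand), had 39.1, 42.6, 49.8 and 42.6 normalized CPM in controls 1 to 4 and 35.5, 48.5, 43.4 and 46.9 in Dnm2 +/K562E mice 1 to 4. Its group means were 43.5 in both, with a log2 fold change of 0.00 (SE 0.11, adjusted p = 0.998). Sesn2, which ATF4 also induces (chr4:132492032-132510501, minus strand), had 4.41, 3.62, 3.02 and 4.12 normalized CPM in controls and 4.24, 5.23, 4.94 and 4.08 in mutant mice. The log2 fold change of Sesn2 was 0.29 (SE 0.16, adjusted p = 0.164), and mutant mice 2 and 3 were above all controls. The log2 ratio of Sesn1 to Sesn2 differed by -0.30 between genotypes (SE 0.22, exact permutation p = 0.229), which did not pass the test.

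Bbc3 encodes PUMA, a BH3-only protein through which p53 starts apoptosis at the mitochondrion. It (chr7:16308393-16318205, plus strand) had 50 to 205 reads per mouse, and stood at 1.67, 1.49, 2.44 and 2.06 normalized CPM in controls 1 to 4. In Dnm2 +/K562E mice 1 to 4 it stood at 3.72, 4.76, 2.74 and 2.13. Mutant mice 1, 2 and 3 lay above all controls, and mouse 4 lay inside their range. The log2 fold change was 0.80 (SE 0.27, adjusted p = 0.0315), past both thresholds. The call was lost without control 1 (adjusted p = 0.0604), control 2 (0.0860), mutant mouse 1 (0.0777) or mutant mouse 2 (0.104), and it depends on both of the mutant mice that were highest.

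**Figure D3:**
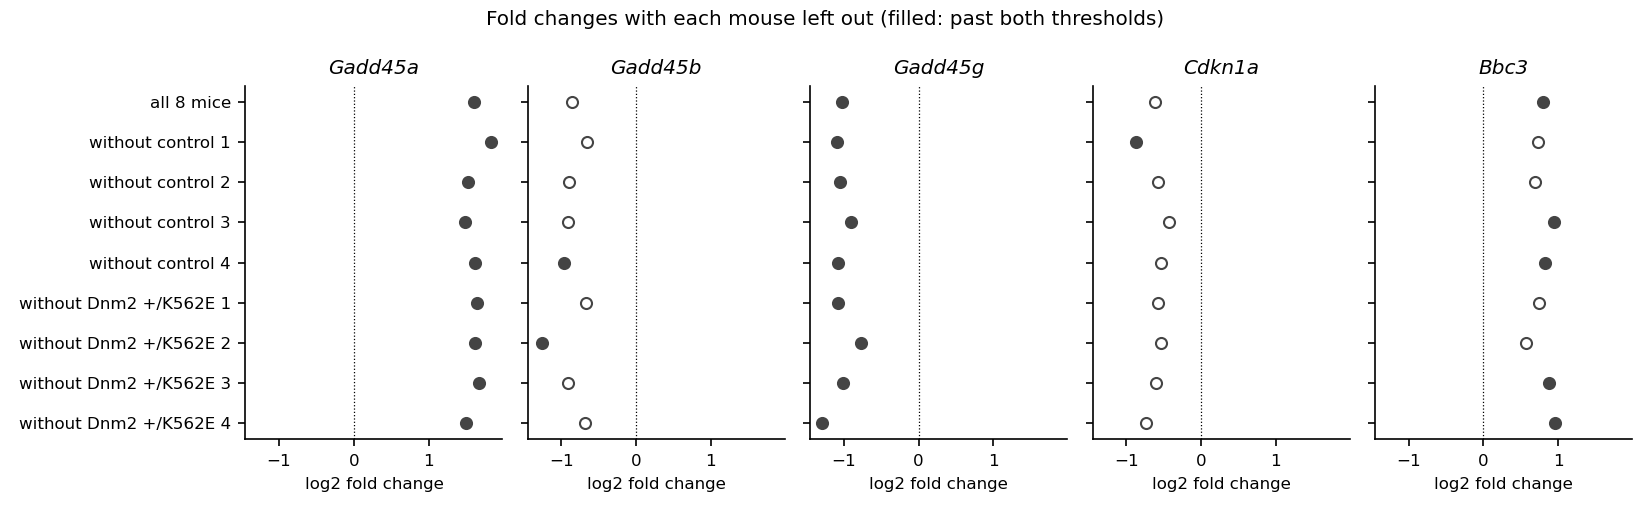
Log2 fold change, Dnm2 +/K562E over control, of 5 of the genes with all 8 mice and with each mouse left out, filled where the adjusted p was under 0.05 and the log2 fold change at least 0.58 in size. Gadd45a and Gadd45g stay filled in every row, Cdkn1a is filled only without control 1 (-0.87), Gadd45b without control 4 or mutant mouse 2, and Bbc3 is open in 4 of the 8 rows that leave out a mouse.

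Ordered by level per kilobase of exon in controls, Ccng1 came first at 231.1 ± 15.7 CPM per kilobase, followed by Gadd45g (27.6 ± 4.78), Cdkn1a (22.8 ± 9.29), Sesn1 (10.9 ± 1.13) and Mdm2 (8.86 ± 0.79). Gadd45b (5.34 ± 1.48), Trp53inp1 (3.87 ± 1.01) and Gadd45a (3.53 ± 1.12) followed, and Sesn2 (1.09 ± 0.17) and Bbc3 (0.90 ± 0.20) were the lowest (SD, n = 4 each). Ranges of neighbours overlapped within each of the groups from Gadd45g to Mdm2, from Gadd45b to Gadd45a and from Sesn2 to Bbc3, and did not overlap between these groups or with Ccng1. In Dnm2 +/K562E mice Gadd45a stood at 10.8 ± 1.67 CPM per kilobase, beside Sesn1 at 10.9 and Mdm2 at 10.1, and thus had moved from rank 8 to rank 5. Gadd45b moved from rank 6 to rank 8, at 2.92 ± 1.56. The order of the other members changed only between neighbours whose ranges overlapped.

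Of the 16 genes listed as regulators of p53, 14 were tested, 2 were called higher and 0 lower, beside 12.9% and 7.85% of all tested genes, with a median fold change, on the log2 scale, of 0.01 (0.23 with library size alone), and Trp73 and Cdkn2a were too low to test. The gene of p53, Trp53, stood at 12.7 to 17.2 normalized CPM in controls and 16.6 to 22.1 in Dnm2 +/K562E mice, overlapping through mutant mouse 4, with a log2 fold change of 0.32 and an adjusted p of 0.0433 that fell short of the fold threshold. An adjusted p under 0.05 alone held for 22.2% of all tested genes in the higher direction and 21.7% in the lower direction. With each mouse left out, the adjusted p of Trp53 stayed under 0.05 in 3 of 8 cases. By the adjusted p alone 4 regulators were higher and 2 lower. The same numbers passed an unadjusted p under 0.05, in edgeR and in DESeq2. The share of all tested genes at that unadjusted threshold was not counted. For Mdm4, which binds and restrains p53, the log2 fold change was -0.21 and the adjusted p 0.156. The called genes were Trp63, a relative of p53 known from epithelia and from muscle fibres under stress, which rose from 4.22 ± 1.56 to 18.6 ± 2.72 normalized CPM (log2 fold change 2.15, adjusted p = 2.3e-05), and Trp53bp1, a DNA break repair factor, at 0.70 (adjusted p = 5.1e-05).

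Of 30 other p53 targets listed, 29 were tested, 3 were called higher and 3 lower, beside 12.9% and 7.85% of all tested genes, the median log2 fold change was 0.07, and 11 of the 29 had no overlap between the genotypes, beside 41.2%. Library size alone gave 8 higher and 2 lower and a median of 0.29, beside 2865 and 564 of the 14001 tested genes and a median of 0.22. By the adjusted p alone 6 were higher, against 22.2% of all tested genes, and 6 were lower, against 21.7%. Eda2r, a death receptor of the TNF receptor family for ectodysplasin A2, rose from 14.8 ± 2.16 to 71.3 ± 14.8 normalized CPM (log2 fold change 2.27, adjusted p = 1.5e-06). Pmaip1, which encodes the BH3-only protein NOXA, was called at 1.59 (adjusted p = 0.00867) and Rprm, which encodes the G2 arrest protein Reprimo, at 2.91 (adjusted p = 7.9e-04). Both rested on few reads, 5 to 39 per mouse for Pmaip1 and 1 to 48 for Rprm. The lower ones were Dglucy (log2 fold change -0.90, adjusted p = 9.7e-05), a D-glutamate cyclase gene, Tigar (-0.86, adjusted p = 3.4e-04), a phosphatase that slows glycolysis, and Btg2 (-0.61, adjusted p = 0.00159), an antiproliferative gene. Btg2 fell below the fold threshold with library size alone (-0.40), without control 3 (-0.50) or without mutant mouse 2 (-0.54).

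**Figure D4:**
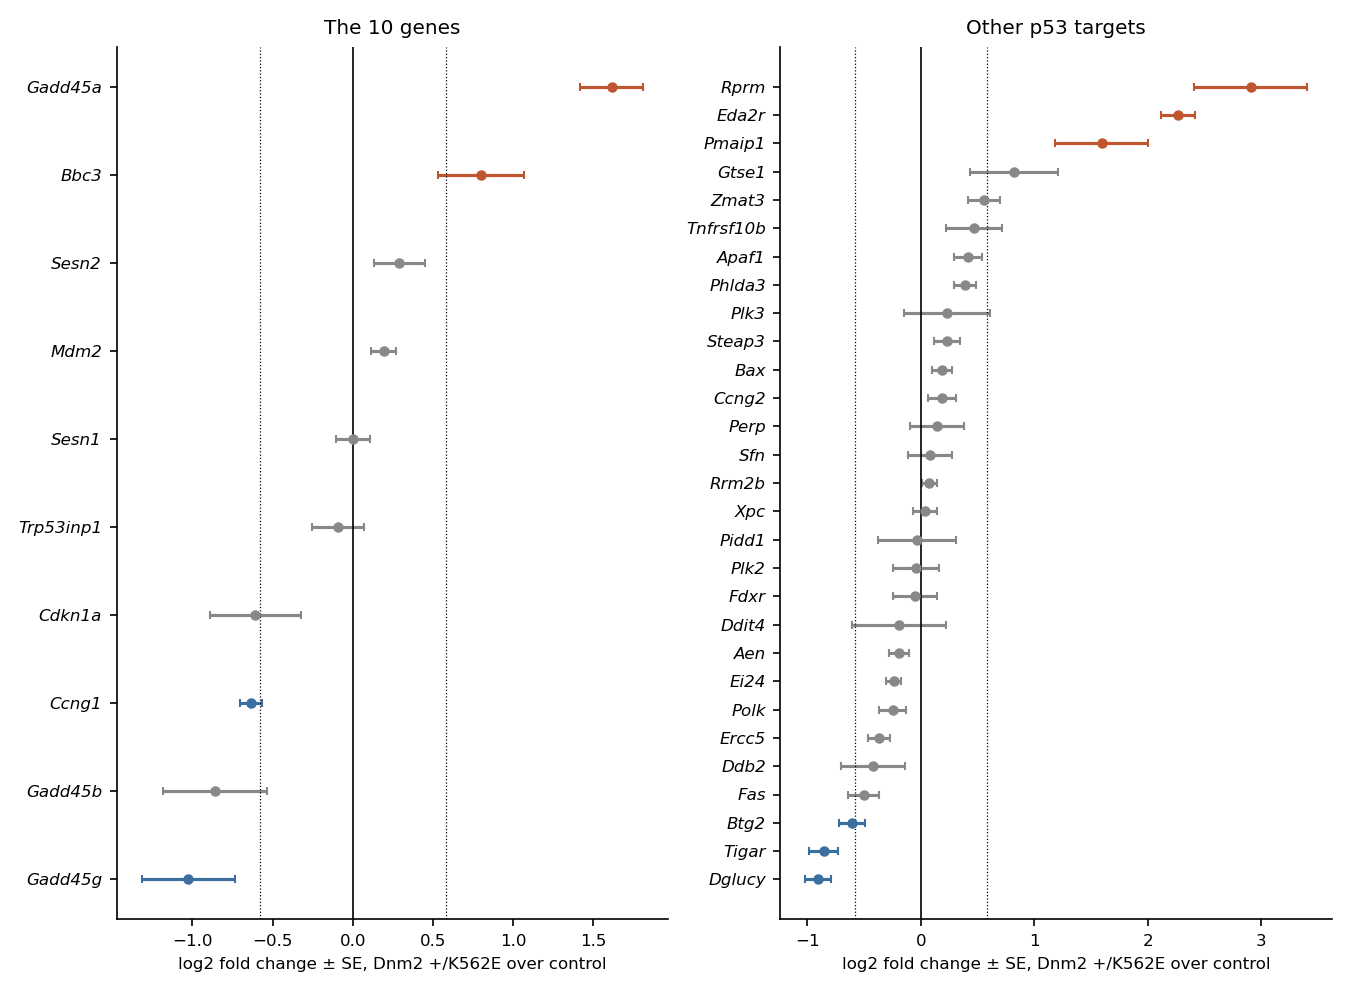
Log2 fold change with its standard error, Dnm2 +/K562E over control (n = 4 each), of the 10 genes (left) and of 29 other p53 targets (right), with genes called higher in orange, called lower in blue, others in grey and dotted lines at the fold threshold of 0.58. Both panels hold genes on each side of 0, from -1.03 (Gadd45g) to 1.61 (Gadd45a) on the left and from -0.90 (Dglucy) to 2.91 (Rprm) on the right.

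The kinases through which the Gadd45 proteins signal, MEKK4 and the p38 and JNK pathways below it, were represented by 11 tested genes. Of these, 0 were called higher and 1 was called lower, beside 12.9% and 7.85% of all tested genes. DESeq2 gave the same 0 and 1, beside 1871 and 1141 of the 14001 tested genes. The median log2 fold change was -0.12, or 0.09 with library size alone. The called gene, Map2k6, encodes an activator of p38 and stood at 31.8, 18.6, 19.2 and 19.9 normalized CPM in controls 1 to 4 and at 7.98 to 14.1 in Dnm2 +/K562E mice (log2 fold change -1.05, adjusted p = 0.00291). Without control 1, which stood above the other controls, it was -0.84 (adjusted p = 0.00311). By the adjusted p alone, and at an unadjusted p under 0.05, 4 were lower and 0 higher, the others being Mapk12, Mapk14 and Mapk9, where 21.7% and 22.2% of all tested genes passed the adjusted p. With library size alone 2 were lower and 2 higher at an unadjusted p under 0.05. How many of all tested genes pass an unadjusted p was not counted.

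Among the CDK inhibitors with their cyclins and CDKs, 16 genes were tested, 3 were called higher and 1 lower, beside 12.9% and 7.85% of all tested genes, with a median log2 fold change of 0.18. Library size alone gave 4 higher and 1 lower and a median of 0.39, beside 2865 and 564 of the 14001 tested genes and a median of 0.22. The lower gene was Cdkn1c, which encodes the p21 relative p57, at 24.5 ± 5.38 normalized CPM in controls and 11.3 ± 1.97 in Dnm2 +/K562E mice (log2 fold change -1.12, adjusted p = 3.4e-04). Ccnd2, a D-type cyclin of cell cycle entry, rose from 36.0 ± 2.01 to 62.0 ± 4.41 (log2 fold change 0.78, adjusted p = 1.1e-05). Ccne1, which drives entry into S phase, had a log2 fold change of 2.32 (edgeR adjusted p = 1.7e-04, 7 to 92 reads per mouse) and E2f1, a transcription factor of S phase genes, one of 0.82 (adjusted p = 0.00727).

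In a list of a further sestrin gene, Sesn3, and of proteins through which the sestrins act on mTORC1 and AMPK, 17 genes were tested. Of these, 1 was called higher and 1 lower, beside the same 12.9% and 7.85%, and the median log2 fold change was -0.00. By the adjusted p alone 4 were higher and 4 lower, beside 22.2% and 21.7% of all tested genes. Sesn3 was among those higher, with a log2 fold change of 0.41 (edgeR adjusted p = 0.0151), below the fold threshold. With library size alone 4 were higher and 1 lower, with a median of 0.21, beside 2865 and 564 of the 14001 tested genes and a median of 0.22. Both genes called with TMM were catalytic subunits of AMPK. Prkaa2, the form that prevails in muscle fibres, fell from 175.4 ± 9.61 to 101.0 ± 3.56 normalized CPM (log2 fold change -0.80, adjusted p = 3.1e-06). Prkaa1, the more widely expressed form, rose from 26.9 ± 2.03 to 44.0 ± 2.06 (log2 fold change 0.71, adjusted p = 2.3e-05).

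The BCL2 family, in which Bbc3 acts, had 12 tested genes, of which 3 were called higher and 0 lower, beside 12.9% and 7.85% of all tested genes, with a median log2 fold change of 0.09. Library size alone gave 4 higher and 0 lower and a median of 0.30, beside 2865 and 564 of the 14001 tested genes and a median of 0.22. By the adjusted p alone 4 were higher and 0 lower, beside 22.2% and 21.7% of all tested genes. At an unadjusted p under 0.05, which more of all genes pass, 5 were higher and 0 lower, in edgeR and in DESeq2. That larger share of all genes was not counted, so these 5 have no background beside them. Bid, a BH3-only protein activated by caspase cleavage, rose from 0.65 to 1.82 normalized CPM in controls to 3.98 to 6.11 in Dnm2 +/K562E mice (log2 fold change 2.05, adjusted p = 1.8e-04). The pore formers Bak1 and Bok had log2 fold changes of 0.61 (adjusted p = 1.3e-04) and 0.71 (adjusted p = 0.00925). Without control 3 Bok was at 0.578, below the fold threshold.

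**Figure D5:**
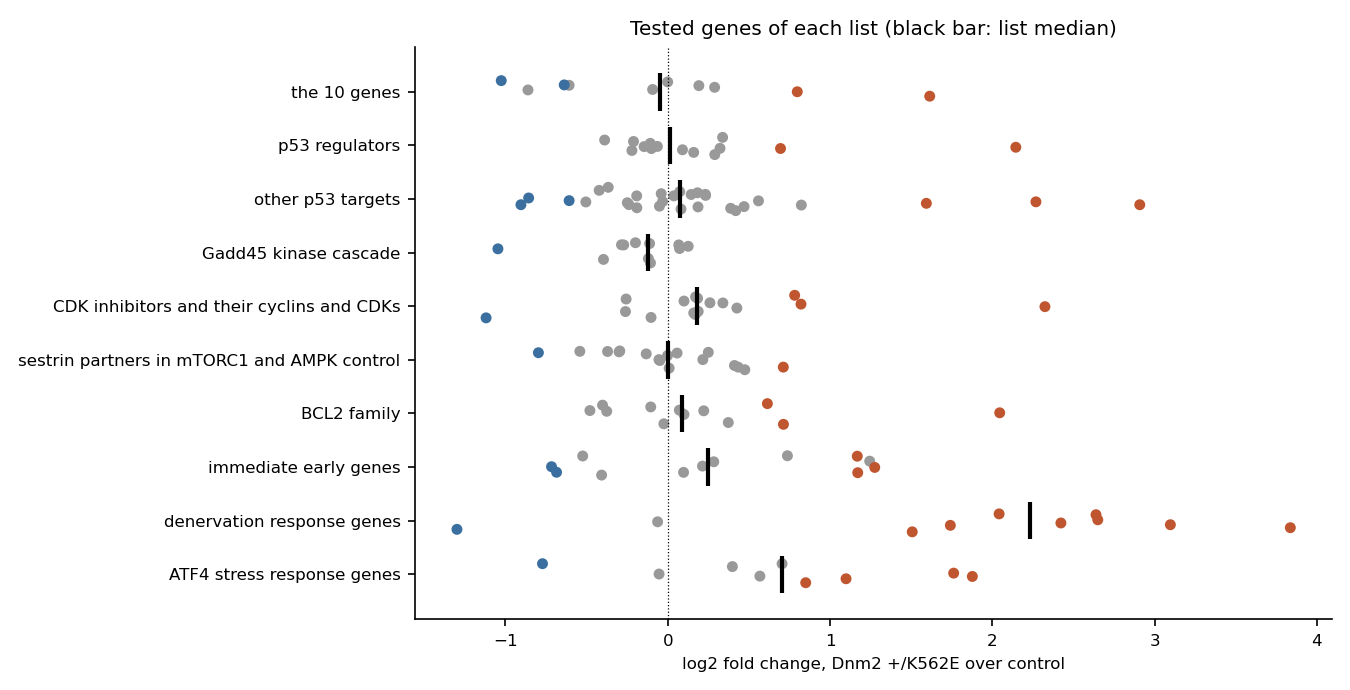
Log2 fold change, Dnm2 +/K562E over control, of the tested genes of 10 lists, with genes called higher in orange, called lower in blue, others in grey and the list median as a black bar. The medians of the 10 genes (-0.05), p53 regulators (0.01) and other p53 targets (0.07) lie near 0 (0.17, 0.23 and 0.29 with library size alone), and those of the denervation response genes (2.23) and ATF4 stress response genes (0.70) lie above it.

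Lists of other stress responses of muscle, in which some of the 10 genes are known to take part, were read beside them, with 12.9% of all tested genes called higher and 7.85% lower. Of 10 denervation response genes, 8 were called higher and 1 lower (Dach2, log2 fold change -1.30), with a median fold change, on the log2 scale, of 2.23 and the largest changes by p-value in Myh3 (3.84), Chrnd (2.65) and Ncam1 (1.74). In mutant soleus of the same age, the paper describes slightly fewer fully innervated endplates but no significant rise in fully denervated fibres. It found no grouping of fibre types. Staining for myosin of embryonic or regenerating fibres was raised there, though low and variable. Whether the listed genes changed through lost nerve input, regeneration or another process was not tested. Of 9 tested ATF4 stress response genes, 4 were higher, among them Mthfd2 (1.88), Asns (1.10) and Gdf15 (1.76), and 1 was lower (Ddit3, -0.77), with a median of 0.70. Library size alone gave 6 higher and 0 lower with a median of 0.93, beside 2865 and 564 of the 14001 tested genes and a median of 0.22. Ddit3 at -0.56 missed the fold threshold there. At an unadjusted p under 0.05, where the share of all tested genes was not counted, 1 was lower. Without control 2, its highest control, Gdf15 was at 2.38. Of 12 immediate early genes, 3 were higher (Junb 1.28, Egr2 1.17 and Fos 1.17) and 2 lower (Jun -0.69 and Nr4a1 -0.72), with a median of 0.25. With library size alone neither Jun (-0.48) nor Nr4a1 (-0.51) passed the fold threshold, and Nr4a1 also fell short of it without Dnm2 +/K562E mouse 2 (-0.50). Junb was at 1.81 without control 1 and Egr2 at 0.71 without Dnm2 +/K562E mouse 3.

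Marker genes of fibres and of other cells of the muscle were measured in the same libraries. Of all tested genes, 12.9% were called higher and 7.85% lower, and 41.2% did not overlap between the genotypes. The adjusted p alone gave 22.2% and 21.7%, and library size alone gave 2865 and 564 called genes of 14001. The exact test of edgeR called 1920 of these genes higher and 1147 lower, and DESeq2 1871 and 1141. The share of all genes at an unadjusted p was not counted. The summed level of 8 muscle fibre markers was 61861 to 69605 normalized CPM in controls and 42234 to 47333 in Dnm2 +/K562E mice, with 3 called lower (1 with library size alone). By the adjusted p alone 6 of the 8 fibre markers were lower. All 7 macrophage markers were called higher, with sums of 72.8 to 135.4 in controls and 179.3 to 295.6 in mutant mice, as were all 6 fibroblast markers, with sums of 2001 to 2935 and 4754 to 6194. Of 6 endothelial markers, 1 was called lower, and all 6 were lower by the adjusted p alone (sums of 991.6 to 1059 and 715.0 to 803.8). With library size alone 0 of these 6 were called, and 4 were lower at an unadjusted p under 0.05. Among 5 satellite cell markers, Pax7, Myf5 and Calcr were lower and Chodl was higher, and the sum, which Chodl dominated, was at most 84.6 in controls and at least 151.8 in mutant mice. Of 8 markers of dividing cells, 3 were called higher, or 5 with the exact test, 4 with DESeq2 and 6 with library size alone (sums of 6.67 to 16.9 and 15.6 to 28.3), and each of the 8 overlapped between the genotypes. Of the Schwann cell markers 0 of 6 were called, with 1 lower at an unadjusted p under 0.05 in edgeR and in DESeq2 (sums of 162.2 to 182.8 and 136.3 to 169.2). No marker of these lists was at 0 in all mice. These marker levels moved with the same genotypes as Gadd45a, Gadd45g, Ccng1 and Bbc3, and their part in those results was not tested.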

How the data were processed

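RNA from the soleus of 4 control and 4 Dnm2 +/K562E mice was sequenced. Per the labels and the study's methods, the authors trimmed reads with Trimmomatic 0.33, aligned them with STAR 2.5.1b to GRCm38 and counted them per Ensembl gene with featureCounts, keeping multi-mapping reads at their primary alignment and counting a read for every gene it overlapped. They deposited raw counts per gene and mouse, without normalization. Whether counting used strand is not given in the sources used here. Libraries were made from poly A-enriched RNA per the methods but with a stranded total RNA kit per the labels.

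Symbols and positions came from GENCODE M21, which matched 22647 of the 22880 gene IDs. Genes were filtered with filterByExpr (minimum count 10, minimum total 15), normalized by TMM and tested with the quasi-likelihood F-test of edgeR 4.0.16 in R 4.3.3, adjusted by the Benjamini-Hochberg method over 14001 genes. Standard errors of log2 fold changes were derived from the F statistics. Depth was 33407430 to 48832814 counts per mouse. Ratios of gene pairs (log2 of normalized CPM) were compared with exact two-sided permutation tests (scipy 1.17.1). Levels per kilobase used merged exon lengths, and positions are on GRCm38. Every pair of libraries of one genotype differed by more than sampling noise.

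Named were the 10 genes, Dnm2, Trp53, Mdm4 and, from each other list, the 3 called genes with the smallest p in each direction. Atf3, Egr1, Mapk12, Mapk14, Mapk9, Trp73, Cdkn2a, Sesn3 and single markers were named after their values were seen. The 10 genes and all lists were chosen with earlier results of these data known. Alternatives were the edgeR exact test, DESeq2 1.42.0, other scalings and filters, 2 replicate blocks, no fold threshold and leaving out each mouse. The fit was tested on simulated data.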

Additional observations from a re-analysis of the deposited data

Results flagged for a closer look

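In each genotype, the highest or lowest of the 4 mice was compared with the other 3 by Dixon's ratio for 44 of the genes named in the text. Genes named only after their values were seen, such as Egr1 and Atf3, were not checked. Of 88 groups checked, 7 had a mouse that stood apart, and chance gives about 1 in 20. None of the 10 stress arrest genes was among them, although control 1 had the lowest Cdkn1a level. Control 3 was low for Dnm2, at 59.2 normalized CPM. Control 1 was high for Map2k6 (31.8) and control 2 for Gdf15 (1.16). Dnm2 +/K562E mouse 3 was high for Eda2r (93.3), mouse 1 for Ccnd2 (68.6) and mouse 4 for Jun (91.1), and mouse 2 was low for Nr4a1 (21.7).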

How the results depend on the processing

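With library size alone, 1 of the 10 genes was called lower, 2865 genes were higher and 564 lower, 8 other p53 targets were higher, and the signs of Trp53inp1 (0.12) and Sesn1 (0.21) turned. TMM and median-ratio factors remove the shift of 0.22 in the median gene that this scaling leaves. Requiring at least 10 counts in every mouse left 1 of the 3 higher p53 targets, since Pmaip1 and Rprm fell under that filter, and put Sesn1 at 0.0098. Without a fold threshold 3103 genes were higher and 3036 lower, and 6 other p53 targets were higher and 6 lower. The exact test of edgeR, DESeq2, median-ratio factors, leaving out mitochondrially encoded genes and no filter each added Gadd45b to the genes called lower, which made 3. Over all genes these settings called 1791 to 1920 higher and 1119 to 1147 lower. Without each mouse in turn, 1 to 2 of the 10 genes were higher and 2 to 3 lower, 1588 to 1970 genes were higher and 1026 to 1209 lower, and 3 to 4 other p53 targets were higher and 2 to 4 lower. Over the same comparisons Trp53inp1 ran from -0.19 to 0.067, Sesn1 from -0.057 to 0.086 and the Gadd45b to Gadd45g ratio difference from -0.51 (without Dnm2 +/K562E mouse 2) to 0.60. The cause of these changes was not tested. Gadd45a and Gadd45g were called under every alternative, and Ccng1 under all but library size alone. With 3 against 4 mice the permutation tests of the ratios cannot reach 0.05, so only values were compared there.

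The mice carry numbers in the titles and, for the mutant mice in another order, in the descriptions, but they are different animals. Between mice with the same title number, departures from the group mean correlated at -0.11 on average, and by description number at -0.03, so the numbers were not taken as pairs. With the title number as a replicate block, 1 of the 10 genes was higher (Bbc3 was lost, adjusted p = 0.0953), 2 were lower, and 1637 genes were higher and 1036 lower. With the description number as a block, 2 and 3 of the 10 and 1739 and 1083 genes were called. Among the 10 genes Bbc3 had the fewest reads, 50 to 205 per mouse, and Pmaip1 (5 to 39), Rprm (1 to 48), Ccne1 (7 to 92) and Gdf15 (12 to 87) had fewer still.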
